A study of Rattus norvegicus with 20 samples.

Results

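The comparison of old with young iliac arteries 3 days after balloon injury rests on 4 of the 20 arrays of the series. Each array carried RNA of 1 old and 1 young artery in different dyes, and the members were taken by their labels: both channels 3 days after injury, with ages of 22 months and 3 months. All rats were of the Fisher strain, and by the labels both arteries of a pair had the same time after injury, although another description of the study calls the young arteries of this comparison control. The injury was made by inflating a balloon catheter in the right iliac artery. The supplier was Harlan Laboratories for young rats and the National Institute of Aging for old ones, so age and supplier cannot be told apart, and other descriptions of the study give other ages for the young rats. No label ties an artery to an animal, so p-values measure the spread between these 4 arrays, which may be partly technical. The old artery was labelled with Cy3 on arrays 1 and 3 and with Cy5 on arrays 2 and 4, and the sign of arrays 1 and 3 was turned so that a positive log2 ratio stands for more RNA in the old artery.

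Balloon injury strips the endothelium from an artery and stretches its wall. Platelets and leukocytes reach the bare surface within hours. In the following days smooth muscle cells of the media give up part of their contractile program, enter the cell cycle and move toward the lumen, where they lay down collagen and other matrix. Day 3 lies in this proliferative period, and the comparison asks whether the artery of an old rat differs from that of a young rat while it is under way. Since whole arteries were used, fewer cells of a type and less RNA per cell cannot be told apart.

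At day 3 no probe differed between old and young arteries past an adjusted p of 0.05 in the limma fit of the 4 arrays. The share called was 0.0% of 41010 probes, and the smallest adjusted p was 0.804. At an unadjusted p under 0.05 there were 2263 probes, or 5.52%. The study's thresholds joined that p to a 2-fold change, and 172 probes (0.419%) met both, 107 of them higher (0.261%) and 65 lower (0.158%) in old arteries. A log2 ratio of one sign on all 4 arrays was seen for 2960 probes (7.22%), of which 1426 lay above 0 (3.48%) and 1534 below (3.74%). Over all probes, the root mean square of the old over young log2 ratio was 0.271, and the residual spread of the same fit alone gives 0.267.

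A second part of the log2 ratio was larger. The fit of each probe holds the old over young part, which changes sign when the dyes are exchanged, and a constant part, which does not, and both have the same standard error. The root mean square of the constant part was 0.480, and it was the larger of both parts in 70.8% of probes. It passed an unadjusted p under 0.05 in 11565 probes (28.2%) and the study's thresholds in 1621 (3.95%, with 1.46% above and 2.49% below 0), while its smallest adjusted p was 0.0529 and so again 0 probes (0.0%) passed 0.05. The deposited values had one sign on all 4 arrays, without any turning, in 15739 probes (38.4%), 19.1% above and 19.3% below 0. Between arrays of opposite dye the turned log2 ratios correlated at -0.430 to -0.272 over 41010 probes, and between arrays of the same dye at 0.381 (arrays 1 and 3) and 0.331 (arrays 2 and 4). Read as Cy5 over Cy3, the constant part follows the dye and the part that turns follows age. If the deposited values already stood as old over young on every array, the constant part would be the age difference and every direction given here for age would fall. The deposited table does not state which reading holds. The turned reading was used because it is the one under which the study's own list for day 3 is signed. On arrays 1 and 3 of day 3, 0.0% of values had over 6 digits, against 96.6% and 96.0% on arrays 2 and 4. The share was also 0.0% on every array of healthy arteries, 30 min and 7 days with the old artery in Cy3. Arrays with both arteries of the same age had 95.5% to 96.4% in either dye order. What set the arrays with the old artery in Cy3 apart before deposit was not tested.

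**Figure D1:**
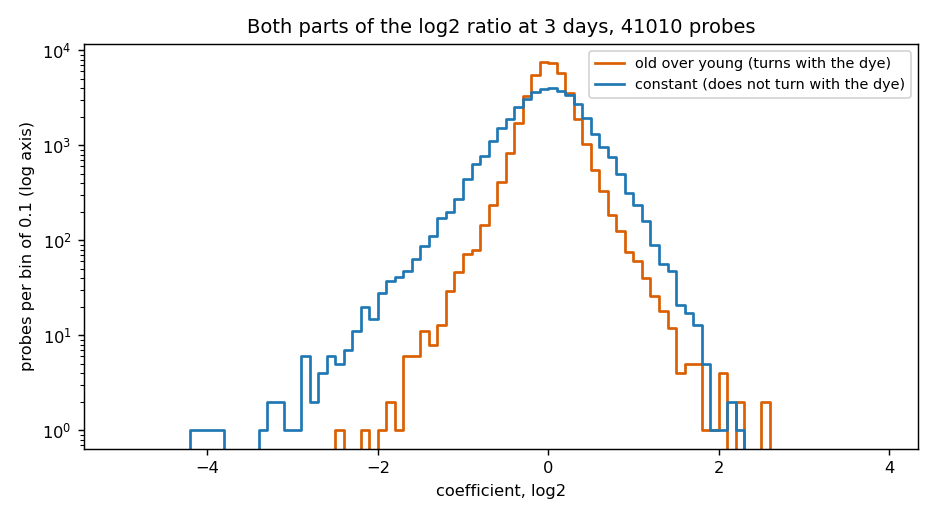
Number of probes (log axis, bins of 0.1) by the size of the old over young part and of the constant part of the log2 ratio in the fit of the 4 arrays of day 3. The constant part is the wider of both, with a root mean square of 0.480 against 0.271.

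The 4 arrays related differently to the age difference of other times. Among the 6 arrays of healthy arteries and of arteries 30 min after injury, 574 probes had one sign on every array and a mean log2 ratio of at least 0.5 in size. Array 1 of day 3 correlated with that mean at 0.233 and array 2 at 0.228, while array 3 correlated at -0.107 and array 4 at -0.343. All 4 arrays of day 7 correlated with it positively, at 0.192 to 0.429. The order depended on which times defined the difference: with probes chosen on healthy arteries alone the 4 arrays of day 3 correlated at -0.036, 0.190, -0.056 and -0.150, and with probes chosen on 30 min alone at 0.240, 0.001, 0.080 and -0.293. Array 4 was below 0 under each of the 3 choices. On day 7 the healthy choice gave 0.082 to 0.182, and the 30 min choice gave -0.051, 0.201, -0.029 and 0.280. With probes chosen on day 7 the arrays of day 3 correlated at 0.170, -0.034, -0.092 and -0.093. The rule that chose the probes passed 1469 on healthy arteries, 1987 at 30 min and 1761 at day 7. With the values left as deposited it passed 485, 2194 and 8440, and 58 in place of 574 on the 6 arrays together. The sign was shared by 337 and 321 of the 574 probes on arrays 1 and 2, and by 270 and 218 on arrays 3 and 4. These correlations run over probes, which are not independent, and the arrays share no sample with those of the other times as far as the labels go. Whether a label was exchanged was not tested. Where a value is given over arrays 1 and 2 alone or over arrays 3 and 4 alone, each pair holds 1 array of each dye order.

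**Figure D2:**
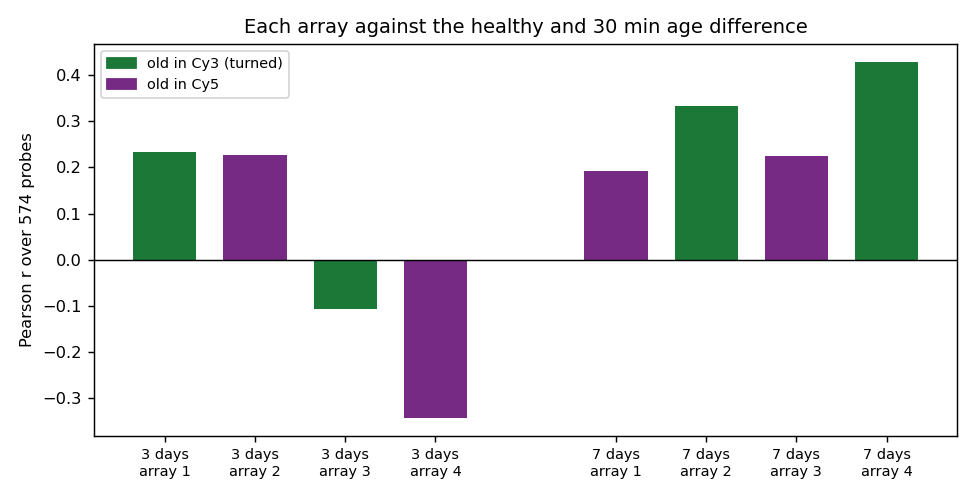
Pearson correlation over 574 probes between the turned log2 ratio of each array of day 3 and day 7 and the mean of the 6 arrays of healthy arteries and of 30 min. With this choice of probes, arrays 1 and 2 of day 3 lie above 0 and arrays 3 and 4 below, and all 4 arrays of day 7 lie above 0.

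Many probes also carried log2 ratios that were not their own alone. On the 4 arrays, 13089 to 16716 probes had a value equal in every digit to that of at least 9 other probes of the same array, and on array 1 a single value stood on 735 probes. Only 19768 probes (48.2%) were free of such shared values on all 4 arrays. They held 15 of the 172 probes past the study's thresholds, or 8.72%, and a share of 0.076% of them passed. Of the 8244 probes with shared values on all 4 arrays, 52 passed, a share of 0.631%. What made the values equal was not tested.

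Of 21394 probes with a gene symbol, 21 reached 2-fold and an unadjusted p under 0.01 with one sign on all 4 arrays. The same rule applied to the constant part, with one sign of the deposited values, passed 522 probes. Of the 21, 10 were higher and 11 lower in old arteries, and all had an adjusted p of 0.822 in limma. The highest was Prp2l1, whose log2 ratios were 4.36, 0.94, 1.61 and 1.12 on arrays 1 to 4 (mean 2.01, SE 0.47). Array 1 stood well above the other three there. Top2b, a DNA topoisomerase that relieves strain ahead of transcription, had log2 ratios of 2.47, 0.91, 2.91 and 0.56 (mean 1.71, SE 0.15). Its Cy3 arrays, 1 and 3, were the higher pair, and its constant part was -0.98. Over arrays 1 and 2 alone the log2 ratio of Top2b was 1.69, and over arrays 3 and 4 alone 1.74. Wnt10a, a secreted Wnt ligand, was even across the arrays in 1 of its probes, with log2 ratios of 1.3, 0.90, 1.34 and 0.97 (mean 1.13, SE 0.12). Its second probe gave -0.19, 0.40, 0.13 and 0.09, so the probes of Wnt10a disagreed. Over arrays 1 and 2 alone the first probe was at 1.10 and over arrays 3 and 4 alone at 1.16. It had shared values on all 4 arrays, and that of array 1 stood on 363 probes.

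The remaining higher probes had mean log2 ratios of 1.01 to 1.13. Myot, an actin-bundling protein of the muscle Z-disc, gave 1.89, 0.31, 1.39 and 0.64. Tyrp1, an enzyme of melanin synthesis, gave 0.16, 2.02, 0.60 and 1.51. The order of the arrays was thus reversed between these genes, with Cy3 arrays highest for Myot and Cy5 arrays highest for Tyrp1. Slc5a12, a lactate transporter known from kidney, gave 1.3, 0.85, 1.34 and 0.59. Its values on arrays 1 and 3 stood on 363 and 243 probes, the Wnt10a probe among them. Chst9, which adds sulfate to sugar chains of glycoproteins, Ttc34 and the olfactory receptor genes Olr1177 and Or10ak14 complete the group, and all of them carried shared values on 2 to 4 arrays.

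On the lower side, Cldn18, a tight junction protein of stomach and lung epithelium, had log2 ratios of -0.75, -1.40, -0.98 and -2.93 (mean -1.51, SE 0.28). Its values on arrays 1 and 3 were the most shared ones of those arrays, on 735 and 513 probes. Hdac5, a histone deacetylase that restrains muscle gene programs, gave -1.01, -1.85, -0.98 and -1.83 (mean -1.42, SE 0.12) and had the smallest unadjusted p of the 21 probes, 0.000124. The pairs of arrays gave Hdac5 -1.43 and -1.41, and Cldn18 -1.07 and -1.96. Samd4b, an RNA-binding repressor of translation, gave -2.0, -1.16, -1.56 and -0.39 (mean -1.28, SE 0.19). Array 4 was the weakest for Samd4b and the strongest for Cldn18. Nrg3, a ligand of the ErbB4 receptor, ranged from -1.49 to -0.52, and Reg4, a secreted lectin of the gut, ranged from -2.19 to -0.02. Ka11, Or11h6, Or51b17 and Actrt1 had means of -1.46 to -1.13.

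Only Taf2 and Tmem8b of the 21 probes had no value shared by 10 or more probes on any of the 4 arrays. Taf2, a subunit of the TFIID complex that places RNA polymerase at promoters, had log2 ratios of -0.65, -1.16, -0.94 and -1.92 (mean -1.17, SE 0.18, unadjusted p = 0.00177 and adjusted p = 0.822 in limma). Array 4 was lowest and all arrays lay below 0. Over arrays 1 and 2 alone the log2 ratio of Taf2 was -0.90 and over arrays 3 and 4 alone -1.43. At the other times Taf2 lay near 0, with means of 0.05 in healthy arteries, 0.15 at 30 min and 0.05 at 7 days. Its difference between 3 and 7 days was -1.22 ± 0.26 (SE), with an adjusted p of 0.247 in limma. Tmem8b, a membrane protein, was the most even of the lower probes, with log2 ratios of -0.87, -1.36, -1.26 and -1.06 (mean -1.14, SE 0.14), and the pairs of arrays gave -1.11 and -1.16. Its mean at 7 days was -0.46, and its means in healthy arteries and at 30 min were 0.14 and 0.14. When all 20 arrays entered 1 limma fit with a common dye coefficient, Tmem8b had an adjusted p of 0.0493 and Taf2 of 0.0821. In the limma fit of the 14 old versus young arrays they had 0.289 and 0.157. Probes with shared values went as low in these fits. Wnt10a had 0.0454 and 0.0471, Samd4b 0.0493 and 0.176, Actrt1 0.0493 and 0.347, and Top2b 0.0896 and 0.0374.

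**Figure D3:**
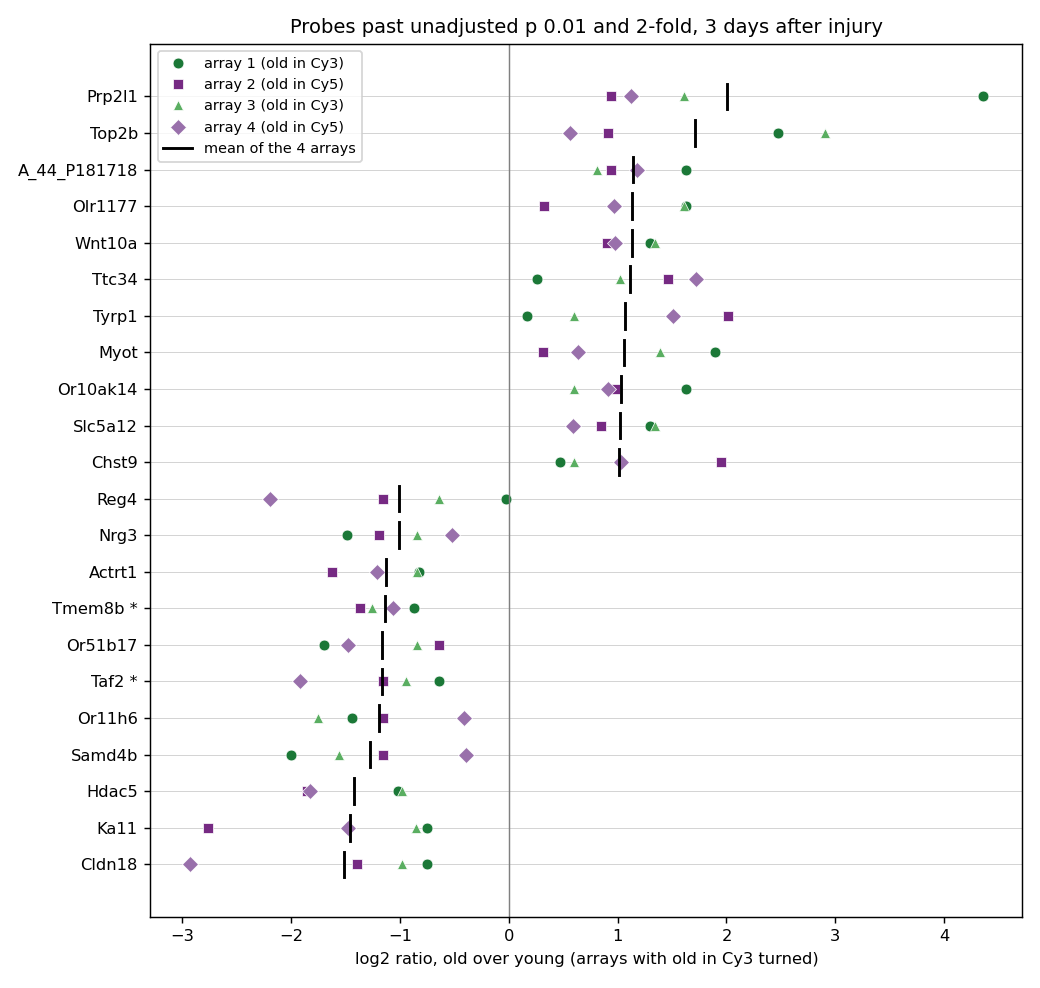
Turned log2 ratio of the 21 probes with a gene symbol past an unadjusted p of 0.01 and 2-fold with one sign on all 4 arrays, and of the probe A_44_P181718, on each array of day 3, with the mean as a bar. The stars mark Taf2 and Tmem8b, which had no shared value on any of the 4 arrays.

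The genes that the study singles out were measured by probes with wide spread at day 3. Myl9 encodes the regulatory light chain of smooth muscle myosin, whose phosphorylation drives contraction. Its first probe gave log2 ratios of -0.55, 0.69, 1.47 and 0.18 (mean 0.45, SE 0.36), and its second -0.14, 0.60, 1.11 and 0.66 (mean 0.56, SE 0.24, unadjusted p = 0.0693 and adjusted p = 0.822 in limma). In both, array 1 lay below 0 and the other three above. Over arrays 1 and 2 alone the Myl9 probes were at 0.07 and 0.23, and over arrays 3 and 4 alone at 0.82 and 0.89. A further probe, A_44_P181718, has no gene symbol in the platform table used here, and the study's list for day 3 calls it Myl9. It gave 1.63, 0.94, 0.81 and 1.18 (mean 1.14, SE 0.18, unadjusted p = 0.00215 and adjusted p = 0.822 in limma), with a shared value on array 1. All 4 arrays lay above 0 for this probe, a 2.20-fold mean ratio, and the pairs of arrays gave 1.28 and 0.99. The same probe had means of 0.15 in healthy arteries, -0.16 at 30 min and 0.60 at 7 days, and its difference between 3 and 7 days was 0.54 ± 0.25 (SE, adjusted p = 0.621 in limma). In the fit of all 20 arrays A_44_P181718 had an adjusted p of 0.0245, and in the fit of the 14 old versus young arrays 0.145.

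Myh11, the smooth muscle myosin heavy chain, gave 0.02 (SE 0.20) and 0.11 (SE 0.23) on its 2 probes, with arrays on both sides of 0 in each. Col3a1, a fibrillar collagen, gave -3.0, -0.34, -0.41 and 0.93 (mean -0.70, SE 0.49), with array 1 far below the other three. Over arrays 1 and 2 alone Col3a1 was at -1.67 and over arrays 3 and 4 alone at 0.26. The 3 probes of Col1a1, the chain that with Col1a2 forms type I collagen, averaged -0.39, -1.61, 1.61 and -0.55 over the arrays. Of 14 genes the study names, 8 lay above 0 and 6 below. None had an unadjusted p under 0.05 in limma on the mean of its probes, beside 5.68% of all genes.

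Among 41 gene lists, the nuclear genes of oxidative phosphorylation were the only list whose turned median had one sign on all 4 arrays. With the arrays left as deposited, 11 of the 41 lists had one sign on all 4 and this list did not. These genes encode the subunits of the respiratory chain and of ATP synthase that are made in the cytosol and imported into mitochondria. The list median was 0.05, 0.09, 0.15 and 0.14 on arrays 1 to 4, beside -0.08, 0.04, -0.12 and 0.03 over all genes. Of its 78 measured genes 60 had a mean above 0, against 45.4% of all 16421 genes. The median over the list was 0.10 and over all genes -0.02. On all 4 arrays 13 of the 78 lay above 0 and 0 below, beside a background of 3.06% and 4.32% of all genes. Over all genes, 5.68% had an unadjusted p under 0.05 and 0.268% also a 2-fold change. The size was small, and 0 of the 78 passed an adjusted p of 0.05, where the background was 0.0% of genes. An unadjusted p under 0.05 was reached by 4, all higher in old arteries, beside 2.52% of all genes. Ndufs5, a subunit of complex I, gave 0.61, 0.28, 0.42 and 0.33 (mean 0.41, SE 0.11). Atp5mg, the g subunit of ATP synthase, gave 0.40, 0.31, 0.41 and 0.34 (mean 0.36, SE 0.10), the narrowest range among the 4. Atp5f1b, the catalytic beta subunit of ATP synthase, gave 0.16, 0.40, 0.19 and 0.47 (mean 0.31, SE 0.10), and Ndufb2 of complex I gave 0.94, 0.02, 0.48 and 0.03 (mean 0.37, SE 0.13). The list holds 73 genes measured free of shared values, with a median of 0.10, and its constant part had a median of -0.001. Over arrays 1 and 2 alone the median was 0.07 and over arrays 3 and 4 alone 0.12. At the other times the list medians were 0.13 in healthy arteries, -0.18 at 30 min and 0.02 at 7 days.

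The ribosomal proteins, which form both subunits of the cytosolic ribosome, had a median below 0. Of 103 genes 36 lay above 0, with a list median of -0.12, and the medians on arrays 1 to 4 were -0.22, 0.09, -0.06 and -0.27. Array 2 alone had a median above 0. The lean rested largely on arrays 4 and 1: without array 4 the median was -0.012 with 51 of 103 genes above 0, and without array 1 it was -0.042 with 46 of 103. At an unadjusted p under 0.05, 7 genes were lower and 2 higher, beside 3.17% and 2.52% of all genes. Rplp2, an acidic protein of the ribosomal stalk, gave -0.32, -0.57, -0.34 and -1.09 (mean -0.58, SE 0.14). Rps18 gave -0.58, -0.25, -0.36 and -0.80 (mean -0.50, SE 0.14) and Rpl7a -0.43, -0.29, -0.23 and -0.79 (mean -0.43, SE 0.14). For these 3 genes every array lay below 0 and array 4 was the lowest. Rpl30l1 gave 1.52, -0.19, 1.34 and -0.40, above 0 on the Cy3 arrays and below on the others. Ribosomal protein genes have many near-identical processed copies that a probe can also bind, so the values of single members are uncertain. In healthy arteries the ribosomal median was 0.23, at 30 min -0.30 and at 7 days 0.01.

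A promoter of each list is shown because the list medians lay on opposite sides of 0, for the ribosomal proteins only by 0.012 without array 4. The sequences are those of RefSeq, build GRCr8, which held 68 of the 78 and 85 of the 103 genes. Each run covers the 250 bases before the start site, and capitals mark the letters GCATGCGC, the core of the NRF1 motif, and CCGGAAG, the core of the ETS motif, on either strand. Atp5mg lies at chr8:54130408-54130657 on the minus strand and Rplp2 at chr1:205975671-205975920 on the plus strand.
Atp5mg: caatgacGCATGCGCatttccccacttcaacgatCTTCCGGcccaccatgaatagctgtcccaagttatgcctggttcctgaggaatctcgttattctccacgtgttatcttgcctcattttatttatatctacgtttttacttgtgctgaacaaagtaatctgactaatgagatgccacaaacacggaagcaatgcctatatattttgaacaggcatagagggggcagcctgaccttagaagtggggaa
Rplp2: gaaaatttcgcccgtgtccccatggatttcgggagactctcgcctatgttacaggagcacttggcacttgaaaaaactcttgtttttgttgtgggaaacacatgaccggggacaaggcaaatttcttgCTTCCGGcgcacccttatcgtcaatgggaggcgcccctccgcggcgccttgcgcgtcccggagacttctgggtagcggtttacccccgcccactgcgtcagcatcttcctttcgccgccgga
GCATGCGC stood in 9 of 68 promoters of oxidative phosphorylation genes (13.2%), in 2 of 85 of ribosomal proteins (2.4%) and in 2.38% of 27457 promoters in all. CCGGAAG stood in 27.9%, 21.2% and 7.74%. The ETS core was thus frequent in both lists and the NRF1 core in one, and a match of letters is a description and not a site of binding.

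**Figure D4:**
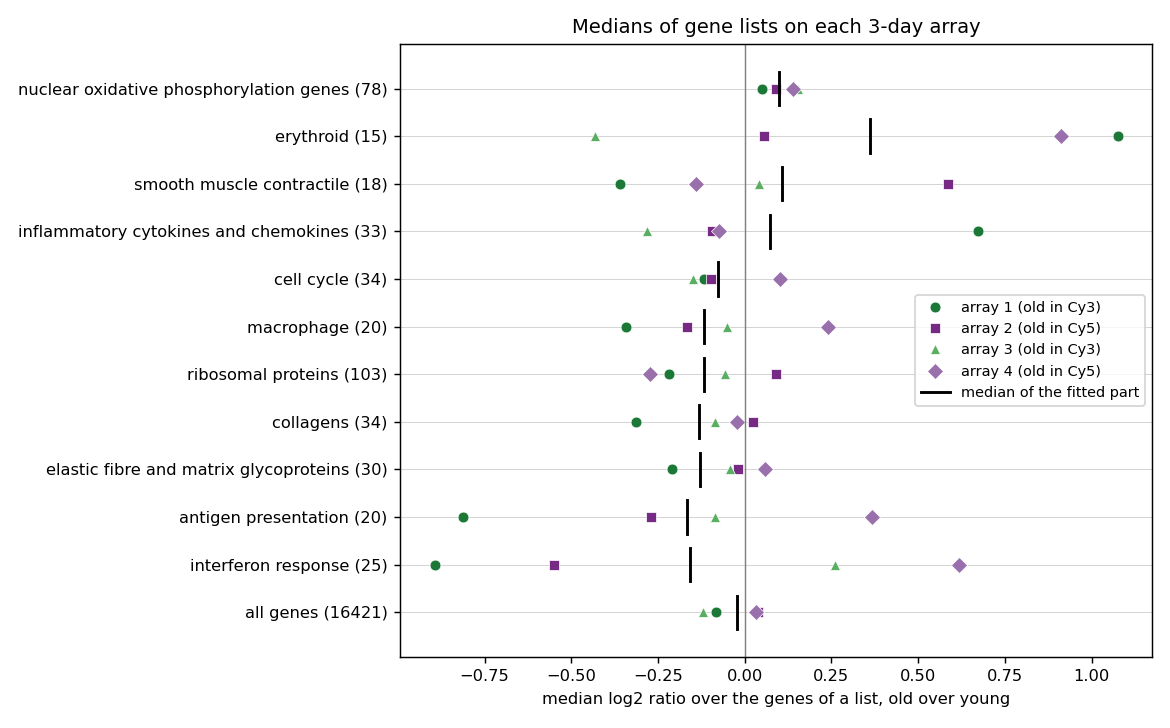
Median turned log2 ratio over the genes of 11 lists and of all genes on each array of day 3, with the number of genes in brackets and the median of the fitted old over young part as a bar. The nuclear oxidative phosphorylation genes are the list whose 4 arrays all lie above 0, and the interferon response list is spread from -0.89 to 0.62.

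Genes of the matrix lay mostly below 0, and array 1 lay furthest below. Of 34 collagens 9 lay above 0, beside 45.4% of all genes, with a median of -0.13 and medians by array of -0.31, 0.02, -0.09 and -0.02. Without array 1 the collagen median was -0.044 with 16 of 34 genes above 0. At an unadjusted p under 0.05, 2 collagens were lower, beside 3.17% of all genes. Col4a3, a basement membrane collagen, gave -1.08, 0.17, -0.98 and 0.03, and Col23a1, a transmembrane collagen, gave -0.64, -0.73, -0.55 and -0.04 (mean -0.49, SE 0.155). Col4a3 split by dye, while Col23a1 lay below 0 on every array only as the mean of its 2 probes. These disagreed, with -1.076, 0.489, -1.095 and 0.314 on the first, which split by dye as well. The second gave -0.195, -1.941, 0.003 and -0.388. Both of them and the Col4a3 probe carried shared values on all 4 arrays. Of 30 genes of elastic fibres and matrix glycoproteins 8 lay above 0, with a median of -0.13, and without array 1 there were 14 of 30 with a median of -0.015. Over arrays 3 and 4 alone the collagens and these genes had medians of -0.038 and -0.029, against -0.262 and -0.151 over arrays 1 and 2. Fn1, the fibronectin of the provisional matrix after injury, gave -0.26, -0.66, -0.05 and -0.97 (mean -0.49, SE 0.12, unadjusted p = 0.0121 and adjusted p = 0.803 in limma). Biglycan (Bgn), a small proteoglycan of the vessel wall, gave -0.39, -0.36, -0.03 and -1.32 (mean -0.52, SE 0.20), and elastin (Eln) gave -1.59, 0.21, -0.42 and -0.44 (mean -0.56, SE 0.25). Fn1 and Bgn lay below 0 on all 4 arrays, each lowest on array 4, and Eln was lowest on array 1. The 27 matrix proteases and their inhibitors had a median of 0.00.

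Immune lists turned from array to array. The interferon response list, genes that cells induce on sensing virus or interferon, had medians of -0.89, -0.55, 0.26 and 0.62 on arrays 1 to 4, and 5 of its 25 genes had a mean above 0 (median -0.16). Mx1, an antiviral GTPase, gave -2.96, -1.48, 1.66 and 1.32, and the transcription factor Irf1 gave -1.38, -0.03, -0.61 and 0.62. Bst2, which tethers budding virus to the membrane, gave -1.39, -0.41, -0.50 and 0.54. Antigen presentation followed the same order, with medians of -0.81, -0.27, -0.09 and 0.37 and 3 of 20 genes above 0. Its constant part, which would be the age difference under the other reading, was above 0 in 18 of 20 genes, beside 57.8% of all genes. The median of that part was 0.23, beside 0.07 over all genes. RT1-Bb, a class II chain, gave -1.45, 0.07, -0.76 and 0.00 (mean -0.54, SE 0.15). The 20 macrophage markers had medians of -0.34, -0.17, -0.05 and 0.24, and the 33 cytokines and chemokines 0.67, -0.09, -0.28 and -0.07. The pairs of arrays thus differed, and the interferon median was 0.44 over arrays 3 and 4 alone, where arrays 1 and 2 lay below 0. Cxcl9, a chemokine that draws T cells, gave 0.80, 0.04, 0.65 and -0.08 (mean 0.35, SE 0.11). It was the only 1 of the 33 cytokines and chemokines at an unadjusted p under 0.05 in limma, beside 5.68% of all genes.

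Markers of cell types lay on both sides of 0 across the arrays of day 3. The 18 contractile genes of smooth muscle, which mark the tissue itself, had a median of 0.11, with medians by array of -0.36, 0.59, 0.04 and -0.14. An unadjusted p under 0.05 in limma was reached by 0 of them, beside 5.68% of all genes. Tagln, an actin-binding protein of smooth muscle, gave -0.71, 0.59, 1.16 and 0.54 (mean 0.40, SE 0.33). The 20 endothelial, 16 fibroblast, 15 neutrophil and 20 lymphocyte markers had medians of -0.08, -0.13, 0.05 and -0.10, and each had arrays on both sides of 0. Erythroid genes lay above 0 in 13 of 15 cases, with a median of 0.36 and medians by array of 1.08, 0.06, -0.43 and 0.91. Klf1, the transcription factor of red cell precursors, gave 1.69, 0.06, -0.35 and 1.25 (mean 0.66, SE 0.41), and Hbb, a beta globin, gave 1.92, -0.25, -1.49 and 2.27. Arrays 1 and 4 were high and array 3 low for both, and the part of these genes' shift in the other lists was not tested.

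Cell cycle genes rise when medial cells divide. Of 34 such genes 10 lay above 0, with a median of -0.08 and medians of -0.12, -0.10, -0.15 and 0.10 by array. Nusap1, a spindle protein, had 1.28, -0.44, 1.22 and -0.62 and split by dye, and Mcm4, a subunit of the replicative helicase, had -0.76, -0.16, -0.34 and -0.08 (mean -0.33, SE 0.13). These were the only members of the 34 at an unadjusted p under 0.05 in limma, beside 5.68% of all genes. None passed the adjusted test, which does not show that the cell cycle genes were alike in both ages. In the family of transforming growth factor beta, 15 of 36 genes lay above 0. Smad3, which carries the signal of its receptors to the nucleus, gave 0.97, 0.22, 0.28 and 0.31 (mean 0.45, SE 0.155), and Bmpr1b, a receptor of bone morphogenetic proteins, gave -0.41, 0.87, -0.33 and 1.13. Wnt7b, another Wnt ligand, gave 1.3, 0.37, 0.69 and 0.32 (mean 0.67, SE 0.145), and 9 of 18 Wnt ligands lay above 0. Of 17 clock genes 3 had an unadjusted p under 0.05, all lower in old arteries, beside 3.17% of all genes: Cry2, a repressor of the clock, gave -0.42, -0.26, -0.35 and -0.18 (mean -0.30, SE 0.10), Per1 gave -0.93, 0.12, -0.92 and 0.32, and Clock gave -1.28, 0.06, -0.98 and -1.99. Only Cry2 of these lay below 0 on all 4 arrays.

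The leading probes of the constant part differed in how even they were across arrays. Socs6, an inhibitor of cytokine receptor signalling, had turned log2 ratios of 3.42, -2.76, 3.89 and -2.48, so that its deposited values all lay below 0 with a mean of -3.14 (unadjusted p = 9.69e-06 and adjusted p = 0.0529 in limma). Ptpn12, a tyrosine phosphatase of focal adhesions, gave 3.08, -2.52, 3.39 and -2.36 (constant part -2.84), and Mob4 gave 3.04, -1.69, 2.87 and -1.49 (constant part -2.27). On the other side, Porcn, the enzyme that attaches fatty acid to Wnt ligands, gave -1.51, 1.90, -1.81 and 1.89 (constant part 1.78), and Smtnl1, a regulator of smooth muscle contraction, gave -1.84, 1.67, -2.24 and 1.64 (constant part 1.85). None of these 5 probes had a shared value on any of the 4 arrays. Polk, the lowest, was uneven, at 3.69, -4.53, 1.02 and -3.37, and so was Or2p2, the highest, at -1.48, 1.34, -3.13 and 2.87. Polk and Taf5l1 on the low side and Or2p2 and MAST1 on the high side had constant parts of -3.15, -2.83, 2.21 and 1.88. Olfactory receptor genes had a constant part above 0 in 730 of 1109 genes, beside 57.8% of all genes, and an old over young part above 0 in 568. Of the 1109 genes 93 were measured free of shared values.

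Several genes with an age difference in healthy arteries and at 30 min lay closer to 0 at day 3. Spp1, or osteopontin, a matrix protein that macrophages and smooth muscle cells release, had log2 ratios of 0.49, 1.92 and 2.32 in healthy arteries and 2.80, 2.10 and 2.59 at 30 min, against 0.00, -0.06, 0.23 and -1.37 at day 3. The difference between 3 days and 30 min was -2.70 ± 0.50 (SE), with an unadjusted p of 0.000332 and an adjusted p of 0.974 in limma. Every array of day 3 lay below every array of both earlier conditions for Spp1. Cxcl13, which draws B cells, had log2 ratios of 1.82, 2.01 and 2.39 in healthy arteries and 1.95 to 3.22 at 30 min, against 0.98, 1.40, -0.30 and -0.61. Ubd, a ubiquitin-like protein induced by interferon gamma, had 1.95 to 2.23 in healthy arteries and 1.92 to 2.32 at 30 min, against 0.64, -0.12, -0.04 and -0.59. RT1-CE5, a class I gene, had 1.02 to 1.55 in healthy arteries, against -0.01, -1.23, 0.46 and -0.17, with a difference of -1.55 ± 0.33 (SE, unadjusted p = 0.000958 and adjusted p = 1.0 in limma). The second probe of RT1-CE5 had a mean of 0.09 in healthy arteries and gave -1.39, -0.06, -0.58 and 0.66 at day 3, so its probes disagreed. On the first probe of RT1-CE5 and on those of Spp1, Cxcl13 and Ubd, every array of day 3 lay below every array of healthy arteries and of 30 min. The genes were picked by the size of these differences or by their values at the other times, so these values are a description.

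Other genes lay below 0 in healthy arteries and, with the sign turned, nearer or above 0 at day 3. Scd, which makes monounsaturated fatty acids, had log2 ratios of -2.68, -3.58 and -2.0 in healthy arteries, against 1.5, -0.95, 0.54 and -0.58 at day 3. Its difference was 3.09 ± 0.42 (SE, unadjusted p = 3.25e-05 and adjusted p = 0.271 in limma). The first probe of Col1a1 had -1.57, -2.43 and -3.14 in healthy arteries, against 0.39, -2.68, 2.65 and -1.11 at day 3, and Col1a2 had -2.46, -2.59 and -0.84, against 0.86, -2.29, 2.47 and -0.67. On these probes of both collagen genes the Cy5 arrays of day 3 lay below 0 and the Cy3 arrays above, and array 2 alone overlapped the healthy arteries. On the other probes of Col1a1 array 1 lay below 0, at -0.80 and -0.76. Their means in healthy arteries were -1.32 and -0.17, so the probes of Col1a1 disagreed. Alpl, alkaline phosphatase, had -1.15 to -1.52 in healthy arteries and 1.66, -0.13, 2.12 and -0.70 at day 3. As deposited, all 4 arrays of day 3 lay below 0 for Scd, the first probe of Col1a1, Col1a2 and Alpl. Their constant parts were -0.89, -1.71, -1.57 and -1.15. The change of these genes from healthy arteries to day 3 thus rests on the turned sign. Of the 574 probes that chose the age difference of healthy arteries and 30 min, 315 were higher in old arteries, with medians of 0.45, -0.01, 0.12 and -0.34 on the arrays of day 3, and 259 were lower, with medians of 0.04, -0.14, 0.20 and -0.02. Past the study's thresholds at day 3 were 0 of the 574, beside 0.419% of all probes, a share at which few would be met among so many.

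**Figure D5:**
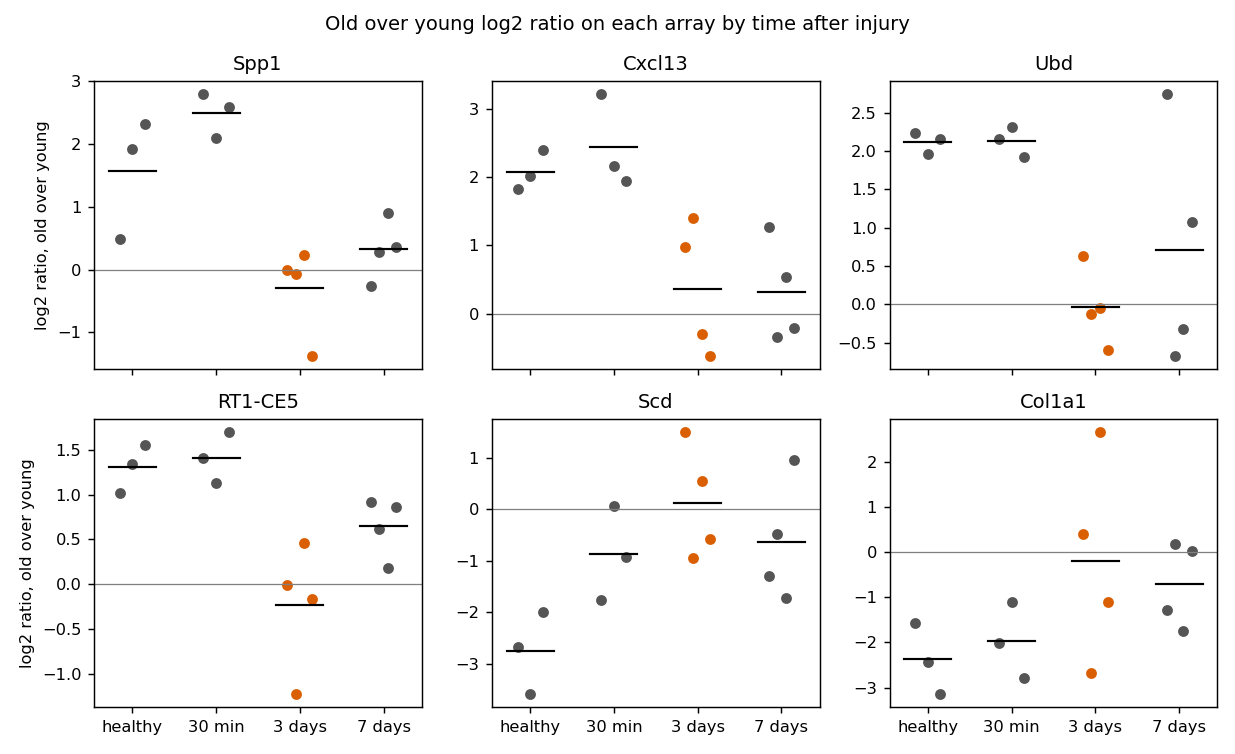
Log2 ratio of old over young on each array (points) and its mean (bar) in healthy arteries, 30 min, 3 days (orange) and 7 days after injury, for Spp1, Cxcl13, Ubd, RT1-CE5, Scd and the first probe of Col1a1. For Spp1 the 4 arrays of day 3 lie at -1.37 to 0.23, below all arrays of healthy arteries and of 30 min.

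Tested over all probes, the old over young log2 ratio of day 3 differed from that of day 7 in 12 probes at an adjusted p under 0.05 (0.0293%), 9 of them higher at day 3 (0.0219%), and from that of 30 min or healthy arteries in 0 (0.0% in each). At an unadjusted p under 0.05, limma gave 3341 probes (8.15%) against 7 days, 1364 (3.33%) against 30 min and 1630 (3.97%) against healthy arteries. With a 2-fold difference as well, the shares were 2.7% against 7 days (1.74% higher and 0.958% lower at day 3), 0.953% against 30 min (0.566% and 0.388%) and 1.1% against healthy arteries (0.785% and 0.317%). Among the 12, S100vp had values at day 3 of 0.88, 0.38, 0.17 and 0.09 against 2.29, 3.24, 3.21 and 3.27 at day 7 (difference -2.62, SE 0.29, adjusted p = 0.0232 in limma), with no overlap between the times. The S100vp probe carried shared values on 3 of the arrays of day 3. Apba2, an adaptor protein of neurons, had 4.30, 0.06, 4.19 and -0.27 at day 3 against -4.31, -0.48, -4.37 and -1.15 at day 7 (difference 4.65, SE 0.21, adjusted p = 5.67e-05 in limma). At each time the size of Apba2 was set by 2 arrays, those with the old artery in Cy3 at day 3 and in Cy5 at day 7. As deposited, these arrays lay below 0 at both times, at nearly the same size. The difference of Apba2 between the times thus rests on the turned sign. Epha4, a receptor of ephrins, differed by 4.62 (SE 0.49, adjusted p = 0.0232 in limma), with arrays of day 3 at 0.89, -0.88, 3.04 and -2.56 and array values of -8.31, -1.10, -8.03 and -0.56 at day 7. The calls of Epha4 and S100vp were lost without array 2 of day 3, that of S100vp also without array 4, and both when the arrays were brought to the same spread, with differences then of 3.08 and -1.83. Of the plasma proteins of the liver, Alb, or albumin, had 0.95, 0.72, -0.96 and -0.84 at day 3 against 1.44, 1.92, 2.40 and 3.09 at day 7, and Fgg, a fibrinogen chain, had 0.67, 0.10, -1.37 and -1.06 against 2.16, 2.16, 2.04 and 1.22. Their differences of -2.24 (SE 0.50) and -2.31 (SE 0.50) had adjusted p-values of 0.259 and 0.254 in limma. At day 3 this Alb probe carried shared values on 2 arrays and this Fgg probe on 3. The arrays of both times did not overlap on these probes, but the second probe of Fgg did overlap, at 0.30, -1.22, 0.10 and -0.88 against 3.04, 0.48, 0.26 and 0.72, and the list of 25 such genes had a median of 0.02 at day 3 and 0.03 at day 7.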

How the data were processed

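Total RNA from rat iliac arteries was labelled with Cy3 and Cy5 and hybridised to Agilent whole rat genome arrays. The authors scanned the arrays and read the images with GenePix, normalized each array by Lowess in Acuity, applied criteria of spot quality, and deposited 1 value per probe and array. Per the values and the labels these deposited values are log2 ratios of both channels, without missing values; the step that made the column is not given in the sources used here. Control spots and signal over background were not analysed here, and precision is limited by how few arrays there are. The platform table gave 1 gene symbol for 21394 of the 41010 probes and no symbol for 19616. An outdated symbol was replaced for 1 probe, and 1 unnamed line was dropped.

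Where the old artery carried Cy3, values were multiplied by -1. The 4 arrays entered a limma fit (version 3.58.1, R 4.3.3) with an old over young coefficient and a constant, with 2 residual degrees of freedom, and p-values were adjusted by Benjamini-Hochberg over all probes. Differences between times came from 1 fit of the 14 old versus young arrays with both coefficients for each time. Lists were described by gene, averaging the probes of each of 16421 genes, by counts and medians. The fit was tested on simulated data.

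Members, lists and tests were chosen with earlier results of these data known. The genes named are the genes the study names; the 12 highest and 12 lowest probes past an unadjusted p of 0.01 and 2-fold with one sign on all 4 arrays, since fewer than 10 passed an adjusted p of 0.05; up to 4 genes with the smallest p of each list; the 8 highest and 8 lowest of the constant part; and the 5 highest and 5 lowest of each difference between times. Mx1, Hbb, Rpl7a and the probe A_44_P181718 were added after their values were seen. Alternatives left out arrays, pooled other arrays, rescaled the arrays or changed the test, and probes with shared values were left out in a setting added after seeing the data. Promoters are from RefSeq (GRCr8).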

Additional observations from a re-analysis of the deposited data

Results flagged for a closer look

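The old over young log2 ratio differed between 3 and 7 days in 12 probes at an adjusted p under 0.05 in limma, by the test of the difference itself. Those with a gene symbol are Apba2 (4.65 on the log2 scale), Epha4 (4.62), Rnf128, a ubiquitin ligase (2.78), Plppr5 (2.74) and S100vp (-2.62). Those without one differed by 4.54 (A_44_P276504), 2.96 (A_44_P438627), 2.52 (A_44_P1051501), 2.36 (A_44_P395796), 2.22 (A_44_P817685), -2.33 (A_44_P715645) and -3.66 (A_44_P334015). Rnf128 had turned log2 ratios of 2.30, -0.19, 2.48 and 0.05 at day 3, high where Cy3 labelled the old artery. The arrays that set the size of Apba2 lay below 0 at both times before any sign was turned.

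Smad3 had 1 array apart from the other three. Array 1 gave 0.97 and the others 0.22 to 0.31, and the gap took 0.878 of the range, over Dixon's critical value for 4 samples. This was 1 of 98 groups of 4 values examined, and chance gives about 1 in 20.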

How the results depend on the processing

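The count at an adjusted p under 0.05, 0 for old over young at day 3, was 7 with the spread pooled over the 14 old versus young arrays, 14 in the fit of all 20 arrays and 19 with replicates 1 and 2 only, while replicates 3 and 4 only gave 0. The count past the study's thresholds, 172, was 496, 360, 684 and 384 without array 1, 2, 3 or 4, 1066 with replicates 1 and 2 only, 784 with replicates 3 and 4 only, 57 among probes with a gene symbol, 15 without shared values, 42 by an unmoderated test of the mean against 0 (0 after Benjamini-Hochberg) and 1621 with the arrays left as deposited. For the constant part, the adjusted count of 0 was 2612 with the arrays of 7 days in the fit, 4080 with the 14 arrays, 677 among probes with a symbol and 4489 without shared values, and its count past the study's thresholds, 1621, was 649 and 953 in the latter 2 settings. The 12 differences from 7 days were 2 at the same spread, 33 in the fit of 20 arrays and 14, 6, 32 and 6 without array 1, 2, 3 or 4 of day 3. Those from 30 min and healthy arteries, 0 each, were 3 and 8 at the same spread and 0 to 2 without 1 array. The cause of these shifts was not tested, beyond the smaller number of probes or arrays. Same-numbered arrays of 3 and 7 days have opposite dye orders. Their deviations from the group means correlated at -0.440 to -0.338, and at -0.123 and 0.034 once the mean of each dye order was removed. With 2 arrays per dye order and time, the latter values are equal for arrays 1 and 3 and for arrays 2 and 4 by construction. They therefore cannot tell whether same-numbered arrays share more than a number. With the replicate block the 12 differences were 0.

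List medians turned sign with replicates 3 and 4 only for antigen presentation (0.13), the interferon response (0.44), contractile genes (-0.083) and cytokines (-0.19). The median of elastic fibre genes, -0.128, was -0.015, -0.052, -0.254 and -0.105 without array 1, 2, 3 or 4. Without 1 array the former 4 lists ranged from -0.353 to 0.006, -0.518 to 0.179, -0.086 to 0.238 and -0.158 to 0.324. With replicates 3 and 4 only, Myh11 (A_44_P274021, -0.317), Irf1 (0.003) and Bst2 (0.023) turned, and with replicates 1 and 2 only Tagln (-0.061) did. Without 1 array the 2 Myh11 probes ranged from -0.159 to 0.203 and from -0.112 to 0.332, the Myl9 probe A_43_P10468 from -0.058 to 0.953 and Tagln from -0.074 to 0.865.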
